A study of Mus musculus with 9 samples.

Results

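The HoxC cluster is 1 of the 4 mouse Hox clusters, and its RNA levels were followed here through every probe set whose only gene symbol was Hoxc4, Hoxc5, Hoxc6, Hoxc8, Hoxc9, Hoxc10 or Hoxc13. These 7 genes, out of 18194 named genes on the array, had 11 of its 45101 probe sets: 3 each for Hoxc5 and Hoxc6 and 1 each for the others. All samples came from Ainv15 mouse embryonic stem (ES) cells in which doxycycline switches on a V5-tagged Cdx2 construct. Cdx2 and FGF cultures (3 arrays, day 5) were embryoid bodies given 1 µM retinoic acid and 0.5 µM hedgehog agonist on day 2, then 2 µg/ml doxycycline on day 3 for 6 to 8 hours and 100 ng/ml basic FGF. Motor neuron cultures (3 arrays, day 5) had the same retinoic acid and hedgehog agonist, with no doxycycline or FGF in their labels. ES cells (3 arrays, day 0) were untreated and had been kept on mitomycin-C-treated fibroblasts. A later change to 100 nM of retinoic acid and of the agonist is described without saying which cultures received it, and doxycycline and FGF always came together, so their parts cannot be told apart.

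Hox genes encode homeodomain transcription factors that give cells of the body axis their position. Within a cluster, genes of low paralog number lie at the 3′ end, are switched on early and reach furthest towards the head, while genes of higher number are switched on later and more caudally. In the spinal cord, retinoic acid favours the first kind, and FGF and the caudal factors of the Cdx family favour the second. Among motor neurons, Hoxc5 and Hoxc6 mark cervical and brachial levels, Hoxc8 the caudal brachial cord, Hoxc9 the thoracic cord and Hoxc10 the lumbar cord. Hoxc13 belongs to the most caudal group and is also known for its role in hair.

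All values below are log2 expression levels per probe set as deposited, or differences of such levels, with the first-named group minus the second. A probe set was tested if it exceeded 4 on at least 3 of the 9 arrays. A call, higher or lower, needed a difference of at least 1 and a limma p under 0.05 after Benjamini-Hochberg adjustment over 21523 probe sets. A fold is written "at least" where arrays of the dimmer group lay under 4, after such values were raised to 4. Of the 11 HoxC probe sets 10 were tested, and 5 of these exceeded 4 in a single group, so they had to differ: the third Hoxc5 set, the first and second Hoxc6 sets, Hoxc9 and Hoxc13. Levels of different probe sets are not compared, since probes differ in brightness.

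Control probe sets separated the ES arrays from the rest. For 18S ribosomal RNA, the 3′ control gave 15.32 to 15.42 on the Cdx2 and FGF arrays, 15.45 to 15.51 on the motor neuron arrays and 5.86 to 6.60 on the ES arrays. Correlations between arrays were 0.998 within the Cdx2 and FGF cultures, 0.995 to 0.997 within the motor neuron cultures and 0.963 to 0.974 within the ES cells. The Actb control, as its 3′ minus its 5′ level, gave -0.10 to -0.01 on the Cdx2 and FGF arrays, -0.05 to -0.03 on the motor neuron arrays and 1.87 to 2.30 on the ES arrays. The part of these controls in any difference from ES cells was not tested. Of 10 motor neuron markers 7 were tested, and all 7 were called higher in motor neuron cultures than in ES cells (median difference 7.68), beside 25.9% of all tested genes. Slc18a3, the vesicular acetylcholine transporter gene, read 11.29, 11.37 and 10.65 in motor neuron cultures against 2.17 on each ES array, whereas Chat and Slc5a7, which serve acetylcholine synthesis, lay under 4 on every array. The labels do not say whether the 3 arrays of a group came from separate cultures, so p-values rest on array-to-array spread, possibly technical only. These are bulk samples, in which fewer cells of a type and less RNA per cell cannot be told apart.

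Along the cluster, the cultures with induced Cdx2 and FGF differed from motor neuron cultures in opposite directions on the 2 sides of Hoxc6. Hoxc4 and all 3 probe sets of Hoxc5 fell, whereas Hoxc8, Hoxc9 and 2 of 3 probe sets of Hoxc6 rose. In counts, 4 of the 10 tested probe sets were called higher, against 10.9% of all tested probe sets, and 4 were called lower, against 8.57%. Among these calls, Hoxc9, the first and second Hoxc6 sets and the third Hoxc5 set exceeded 4 in a single group, so they had to differ. The third Hoxc6 set and Hoxc13 were not called, and Hoxc10 was too dim to be tested. With only the 6 arrays of these groups in the fit, the counts were again 4 and 4.

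**Figure D1:**
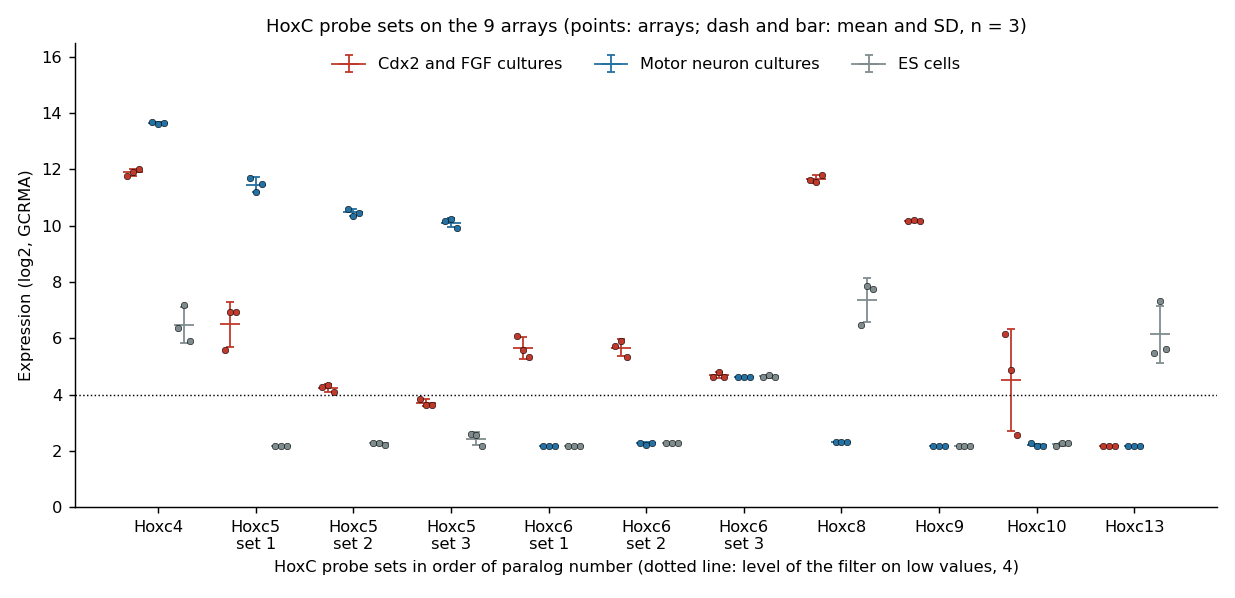
Expression (log2) of the 11 HoxC probe sets in order of paralog number on the 9 arrays, with Cdx2 and FGF cultures, motor neuron cultures and ES cells from left to right at each probe set; points are arrays, dashes and bars the mean and SD of 3 arrays, and the dotted line is the level of 4 used to choose probe sets for testing. Hoxc4 and Hoxc5 are brightest in motor neuron cultures, Hoxc8 and Hoxc9 in Cdx2 and FGF cultures, and Hoxc13 lies above 4 in ES cells alone.

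Hoxc4 (probe set 1422870_at) is the gene at the 3′ end of the cluster and the only member with a promoter in the RefSeq table used here, so its upstream sequence is shown. The 250 bases before its listed start, on chromosome 15 at chr15:103034145-103034394 (GRCm38.p6, plus strand, RefSeq), lie within the annotated span of Hoxc4, since other transcripts of the gene begin further upstream. Capitals mark matches to the retinoic acid receptor half-site AGGTCA, here on the opposite strand, and to TAAT, the core of many homeodomain sites; the matches do not overlap.
Hoxc4: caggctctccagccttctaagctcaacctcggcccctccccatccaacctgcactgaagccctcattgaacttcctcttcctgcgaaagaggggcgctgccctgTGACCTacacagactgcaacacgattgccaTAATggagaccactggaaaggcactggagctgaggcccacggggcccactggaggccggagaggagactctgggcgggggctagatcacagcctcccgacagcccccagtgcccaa
The window is 62% G or C. On either strand AGGTCA was found in 14% of all 32851 windows of this length and TAAT in 54.9%. TTTATG, a form of the Cdx site present in 10.8% of windows, is not among these letters.

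Hoxc4 read 11.78, 11.89 and 12.01 in Cdx2 and FGF cultures, 13.70, 13.62 and 13.63 in motor neuron cultures, against 6.37, 7.17 and 5.89 in ES cells. The 3 groups did not overlap, and every array lay above 4. Hoxc4 fell 3.38-fold in Cdx2 and FGF cultures relative to motor neuron cultures (log2 difference -1.76, SE 0.27, 95% interval -2.38 to -1.14, adjusted p = 0.00129). It was nevertheless 42.6-fold above ES cells there (difference 5.41, SE 0.27, adjusted p = 1.87e-07), and 144-fold above them in motor neuron cultures (7.17, SE 0.27, adjusted p = 2.83e-08).

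Hoxc5, its neighbour in the cluster, was measured by 3 probe sets that moved the same way. The first (1439885_at) read 5.58, 6.95 and 6.95 in Cdx2 and FGF cultures, 11.70, 11.19 and 11.48 in motor neuron cultures, against 2.18, 2.18 and 2.17 in ES cells. The second (1450832_at) read 4.26, 4.35 and 4.08 in Cdx2 and FGF cultures, 10.58, 10.35 and 10.46 in motor neuron cultures, against 2.30, 2.30 and 2.20 in ES cells. The third (1456301_at) read 3.85, 3.64 and 3.64 in Cdx2 and FGF cultures, 10.15, 10.25 and 9.92 in motor neuron cultures, against 2.59, 2.58 and 2.17 in ES cells. In each set the motor neuron arrays were the highest, the Cdx2 and FGF arrays came next, and no groups overlapped.

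Relative to motor neuron cultures, Hoxc5 fell 31.1-fold in Cdx2 and FGF cultures by the first probe set (difference -4.96, SE 0.37, 95% interval -5.80 to -4.12, adjusted p = 1.33e-05). It fell 75.5-fold by the second (-6.24, SE 0.20, interval -6.69 to -5.79, adjusted p = 1.04e-07) and at least 69-fold by the third (-6.40, SE 0.22, interval -6.90 to -5.90, adjusted p = 1.62e-07). The intervals of the 3 Hoxc5 sets do not reach that of Hoxc4. Nor do those of Hoxc5 sets 1439885_at and 1456301_at overlap each other, at -5.80 to -4.12 and -6.90 to -5.90. Differences between these genes and between probe sets therefore cannot be told apart here. Against ES cells, Hoxc5 in motor neuron cultures was at least 176-fold, 88.4-fold and 69-fold higher by the 3 sets, with differences of 9.28, 8.20 and 7.66. In Cdx2 and FGF cultures it was called above ES cells by all 3 sets, with differences of 4.32, 1.96 and 1.27. With values under 4 raised to 4, the first set gave a rise of at least 5.64-fold, while the calls of the other 2 sets ended, with differences of 0.23 (adjusted p = 0.256) and 0 (adjusted p = 1).

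Hoxc6, which lies next in the 5′ direction and marks the forelimb level in motor neurons, came out differently by probe set. The first (1427361_at) read 6.08, 5.59 and 5.32 in Cdx2 and FGF cultures and 2.17 on each array of motor neuron cultures and ES cells. The second (1427362_x_at) read 5.73, 5.92 and 5.35 in Cdx2 and FGF cultures, 2.30, 2.20 and 2.30 in motor neuron cultures and 2.30 on each ES array. By both sets Hoxc6 rose in Cdx2 and FGF cultures relative to motor neuron cultures, at least 3.17-fold and at least 3.18-fold (differences 3.50, SE 0.22, and 3.40, SE 0.19; adjusted p = 4.08e-06 and 2.43e-06). Between motor neuron cultures and ES cells the differences were 0 and -0.03 (95% intervals -0.49 to 0.49 and -0.47 to 0.41). All of these arrays lay under 4, so the values show a lack of detection and not a measured equality. The intervals rest on a spread shared over all 3 groups. The third set (1427454_at) read 4.62, its lowest value, on 7 of the 9 arrays, with 4.82 on 1 Cdx2 and FGF array and 4.71 on 1 ES array. It passed the filter because that lowest value exceeds 4, and it was not called in Cdx2 and FGF cultures relative to motor neuron cultures (difference 0.06, SE 0.18, interval -0.35 to 0.47, adjusted p = 0.867).

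Hoxc8, the gene of the caudal brachial cord, was bright in Cdx2 and FGF cultures and under 4 in motor neuron cultures. Its probe set (1452412_at) read 11.62, 11.55 and 11.80 in Cdx2 and FGF cultures, 2.31 on each motor neuron array, and 6.47, 7.87 and 7.77 in ES cells. No groups overlapped, and the motor neuron cultures were the lowest. Hoxc8 was at least 202-fold higher in Cdx2 and FGF cultures than in motor neuron cultures (difference 9.35, SE 0.36, 95% interval 8.54 to 10.15, adjusted p = 2.57e-07). It was also 19.5-fold higher than in ES cells (4.29, SE 0.36, adjusted p = 4.79e-06). In motor neuron cultures it was at least 10.4-fold lower than in ES cells (-5.06, SE 0.36, adjusted p = 1.36e-06).

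Hoxc9, which specifies thoracic motor neurons and represses brachial Hox genes there, was detected in a single group. Its probe set (1449867_at) read 10.15, 10.20 and 10.15 in Cdx2 and FGF cultures, against 2.17 on each motor neuron array and each ES array. The rise was at least 71.9-fold over motor neuron cultures (difference 8.00, SE 0.18, interval 7.60 to 8.40, adjusted p = 2.60e-08) and equally over ES cells (adjusted p = 2.81e-09). Between motor neuron cultures and ES cells the difference was 0 (interval -0.40 to 0.40), with both at the lowest value of the table.

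Hoxc10, the lumbar gene, was uneven in Cdx2 and FGF cultures. Its probe set (1439798_at) read 6.14, 4.88 and 2.55 there, against 2.27, 2.17 and 2.17 in motor neuron cultures; the ES arrays read 2.17, 2.27 and 2.27. All 3 Cdx2 and FGF arrays lay above the other arrays, 2 of them over 4, so the probe set missed the filter. The difference from motor neuron cultures was 2.32 (4.52 ± 1.82 in Cdx2 and FGF cultures against 2.21 ± 0.05 in motor neuron cultures, SD, n = 3), with an exact two-sided permutation p of 0.1, the smallest that 3 arrays against 3 allow. In a limma fit without the filter its adjusted p was 0.153 against motor neuron cultures and 0.0793 against ES cells. With low values raised, Hoxc10 was 2.01-fold higher, and 1.36-fold without Cdx2 and FGF replicate 1. These folds are not bounds, because the raising also lifted Cdx2 and FGF replicate 3, at 2.55, to 4.

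Hoxc13, at the 5′ end of the cluster, read above the filter level in ES cells alone. Its probe set (1425874_at) stood at 2.17 on every Cdx2 and FGF array and every motor neuron array, and at 5.48, 7.31 and 5.62 in ES cells. Hoxc13 was at least 4.4-fold lower than in ES cells in both kinds of day 5 culture (difference -3.97, SE 0.42; adjusted p = 2.55e-05 for Cdx2 and FGF cultures and 2.19e-05 for motor neuron cultures). Without ES replicate 2 the bound was 2.94-fold. Hoxc11, Hoxc12 and the long noncoding RNA gene Hotair, which lie between Hoxc13 and Hoxc10, were not analysed here.

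Between motor neuron cultures and ES cells 4 probe sets were called higher, those of Hoxc4 and Hoxc5, beside 31.9% of all tested probe sets. In the same comparison 2 were called lower, those of Hoxc8 and Hoxc13, beside 27.9%. In Cdx2 and FGF cultures against ES cells 8 were called higher, beside 31.4% of all, and 1 lower, beside 24.7%. The counts of both comparisons include probe sets that exceeded 4 in a single group and so had to differ. This does not hold for Hoxc5 set 1456301_at in Cdx2 and FGF cultures against ES cells. That set exceeded 4 in motor neuron cultures alone, so its call there rests on values under 4. With values under 4 raised to 4, its call and that of Hoxc5 set 1450832_at ended, and 6 were called higher in place of 8. The median difference of all tested probe sets was 0.10 for motor neuron cultures against ES cells, 0.04 for Cdx2 and FGF cultures against motor neuron cultures and 0.14 against ES cells. Each pair of these comparisons shares a group of arrays, so their values are set side by side in the plot of differences and not correlated.

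**Figure D2:**
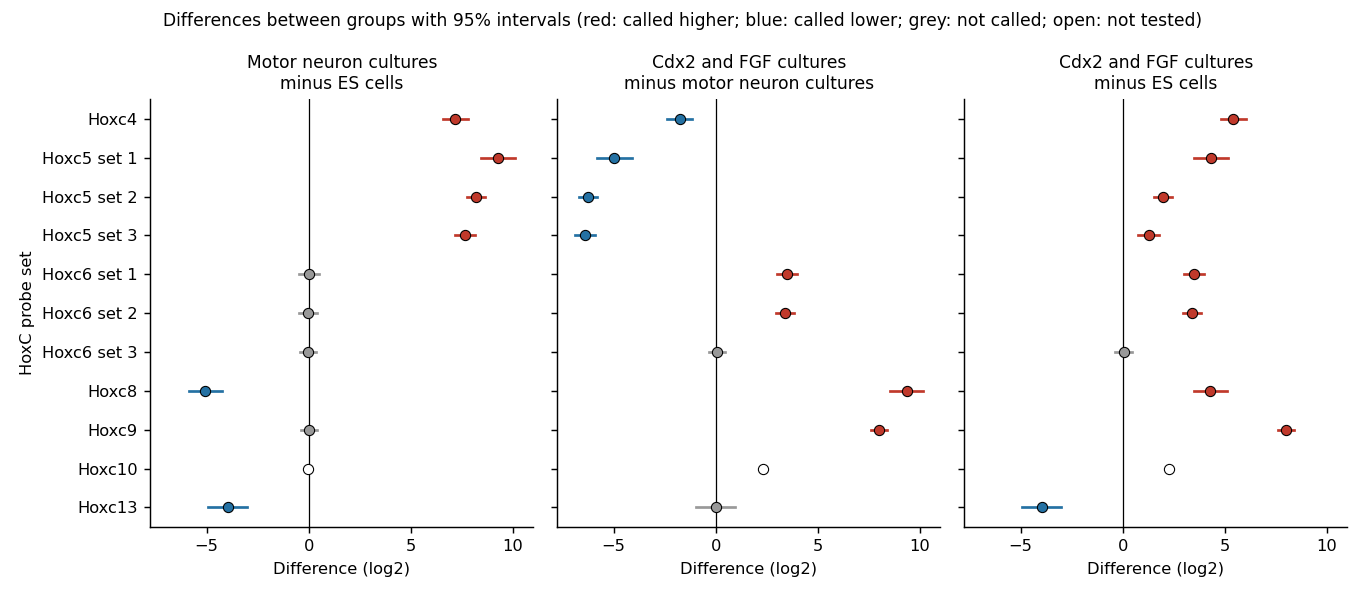
Differences (log2, x axis) of the 11 HoxC probe sets in the 3 comparisons, with 95% intervals from the limma fit; red is called higher, blue called lower, grey not called and open not tested. In the middle panel Hoxc4 and Hoxc5 lie left of 0, from -1.76 to -6.40, and Hoxc8 and Hoxc9 lie right of it, at 9.35 and 8.00.

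Levels of Hoxc4, Hoxc8 and Hoxc13 in ES cells stood beside markers of fibroblasts, on which these cells had been grown. Of 23 fibroblast markers with a probe set, 12 lay under 4 on all Cdx2 and FGF arrays, 19 on all motor neuron arrays and 2 (Lum and Fap) on all ES arrays. Their median level was 3.11, 2.79 and 3.00 in Cdx2 and FGF cultures, 2.17, 2.18 and 2.17 in motor neuron cultures, against 3.03, 8.17 and 7.41 in ES cells. ES replicate 1, which had the lowest marker median and the lowest Hoxc8 and Hoxc13 of the 3 ES arrays, had the middle value of Hoxc4. Across ES replicates 1 to 3, Hoxc8 read 6.47, 7.87 and 7.77, and Hoxc13 read 5.48, 7.31 and 5.62. Hoxc13 was thus almost equal in replicates 1 and 3, whose marker medians were 3.03 and 7.41. Summed on the linear scale, the markers came to 27045 to 28166 in Cdx2 and FGF cultures, 23358 to 26002 in motor neuron cultures and 12472 to 30872 in ES cells. Vim, which neural cells also express, made up at least 98.7% of the sum in motor neuron cultures; without it the sums were 4175 to 4660 in Cdx2 and FGF cultures, 271 to 309 in motor neuron cultures and 2420 to 13983 in ES cells. The part of the fibroblast layer in these ES levels was not tested.

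Other cell type markers also moved between the kinds of day 5 culture. The summed linear level of 10 motor neuron markers was 8759 to 9323 in Cdx2 and FGF cultures and 20823 to 23560 in motor neuron cultures. These sums stood beside the fall of Hoxc4 and Hoxc5. Nkx6-1 and Olig2, not called between these cultures, made up 76.1% to 78.5% of the first sum and 37.1% to 47.3% of the second. Without them the sums were 1973 to 2186 in Cdx2 and FGF cultures and 10975 to 14820 in motor neuron cultures. Of 7 tested motor neuron markers 5 fell in Cdx2 and FGF cultures, beside 8.55% of all tested genes. The summed linear level of 22 mesoderm markers was 18229 to 19650 in Cdx2 and FGF cultures. It was 243 to 300 in motor neuron cultures and 2649 to 12722 in ES cells. Beside it stood the rise of Hoxc6, Hoxc8 and Hoxc9, genes that embryonic mesoderm also uses. The contractile genes Acta2 and Actc1 made up 77% to 81.8% of the sum in Cdx2 and FGF cultures; without them the sums were 3322 to 4526 in Cdx2 and FGF cultures, 202 to 285 in motor neuron cultures and 1573 to 2020 in ES cells. Of 7 tested mesoderm markers 6 rose in Cdx2 and FGF cultures relative to motor neuron cultures, beside 11.1% of all tested genes. The other was not called. Meox1, Foxc1, Foxf1 and Actc1 exceeded 4 in Cdx2 and FGF cultures alone, so they had to differ. Tbx6 and Msgn1, which define presomitic mesoderm, lay under 4 on every array, and 15 of the 22 markers lay under 4 on all Cdx2 and FGF arrays, 20 on all motor neuron arrays and 17 on all ES arrays. Of 13 tested fibroblast markers, 8 rose in Cdx2 and FGF cultures relative to motor neuron cultures, beside the same 11.1%. The others were not called. The part of these cell types in the HoxC differences was not tested.

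Genes just outside the cluster were compared between the day 5 cultures in the same way. Of the 10 nearest protein-coding genes, 5 on each side, 8 were tested, with differences from -1.07 to 1.36. Among them 1 was called higher and 1 lower, beside 11.1% and 8.55% of all tested genes. Smug1, a DNA repair gene next to Hoxc4, fell in Cdx2 and FGF cultures to 10.76 ± 0.05, against 11.83 ± 0.33 in motor neuron cultures (SD, n = 3; difference -1.07, SE 0.19, adjusted p = 0.00246). Atf7, a transcription factor gene beyond Hoxc13, rose to 8.24 ± 0.19 in Cdx2 and FGF cultures, against 6.88 ± 0.24 in motor neuron cultures (difference 1.36, SE 0.36, adjusted p = 0.0212). The other 6 tested genes were not called: Calcoco1, which adjoins Hoxc13, had a difference of -0.27 (SE 0.21), and Cbx5, which encodes the heterochromatin protein HP1 alpha, 0.14 (SE 0.08). Npff and Nfe2 were too dim to be tested.

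**Figure D3:**
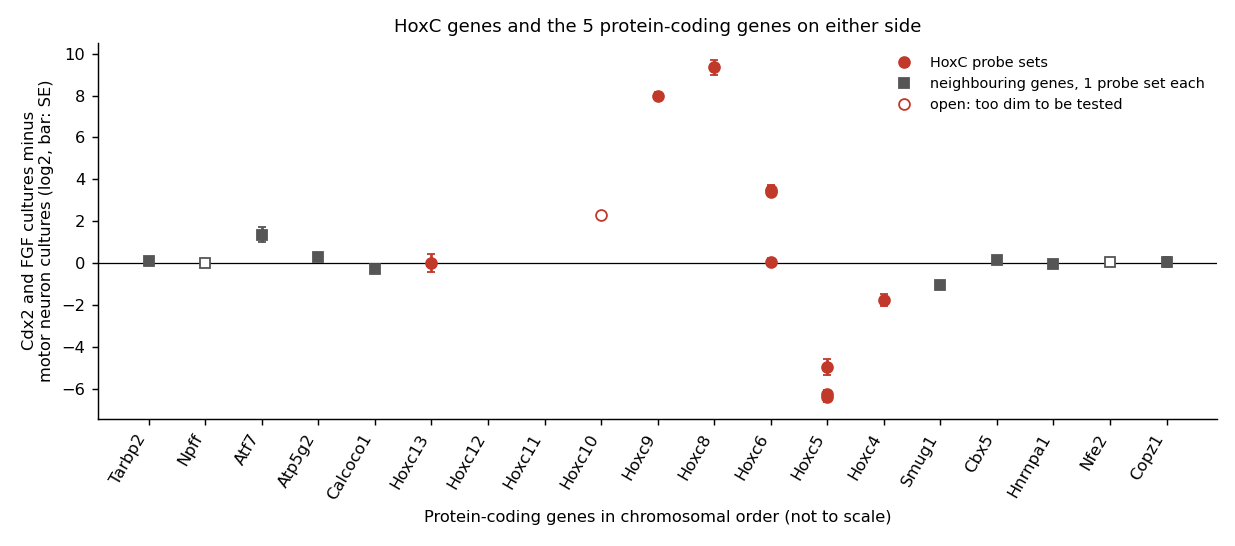
Difference between Cdx2 and FGF cultures and motor neuron cultures (log2, bars: SE of the limma fit) for HoxC probe sets (red circles) and the 5 protein-coding genes on either side (grey squares), in chromosomal order and not to scale; open symbols were too dim to be tested, and Hoxc11 and Hoxc12 have no point. The neighbours lie between -1.07 and 1.36, Hoxc9 and Hoxc8 at 8.00 and 9.35, and Hoxc5 between -6.40 and -4.96.

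In the other 3 clusters, too, genes of low and high paralog number were called in opposite directions between the day 5 cultures. In HoxA, 2 of 6 tested genes rose and 4 fell in Cdx2 and FGF cultures, with differences of 8.99 for Hoxa9, 3.70 for Hoxa7 and -3.68 for Hoxa4. In HoxB, 1 of 6 rose and 4 fell, with 7.99 for Hoxb9, -3.72 for Hoxb4 and -3.50 for Hoxb5. Hoxb6, chosen after its values were seen because it is the tested paralog of Hoxc6, fell to 10.19 ± 0.37 in Cdx2 and FGF cultures, against 12.98 ± 0.25 in motor neuron cultures (SD, n = 3; difference -2.79, SE 0.28, adjusted p = 9.13e-05), whereas 2 Hoxc6 sets rose; the difference between the paralogs was not tested. In HoxD, 2 of 4 rose and 1 fell, with 7.28 for Hoxd9, 5.41 for Hoxd8 and -4.46 for Hoxd3. Hoxa7, Hoxa9, Hoxb9 and Hoxd9 lay under 4 on every motor neuron array, so the sizes of their rises are not ranked. Of these, Hoxa7, Hoxa9 and Hoxb9 also lay under 4 on every ES array, so they had to differ. Counting each gene by its brightest probe set, 11.1% of all tested genes were called higher and 8.55% lower in this comparison. Against ES cells, genes of these clusters were called higher in Cdx2 and FGF cultures in 5 of 6 cases for HoxA, 6 of 6 for HoxB and 3 of 4 for HoxD, beside 25.4% of all genes, and 1 HoxD gene was called lower, beside 27.2%. In motor neuron cultures against ES cells, 4 HoxA, 5 HoxB and 2 HoxD genes were called higher, beside 25.9% of all genes, and 2 HoxD genes were called lower, beside 30.7%.

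Hoxc4 and Hoxc5 were set against their tested paralogs through the difference within each array, in the 4 pairs where both genes lay above 4 on all Cdx2 and FGF arrays and all motor neuron arrays. Hoxc4 fell by less than Hoxa4 and Hoxb4, with differences of differences of 1.93 and 1.96 on the log2 scale. Hoxa4 read 5.03 on each Cdx2 and FGF array, without spread, so its fall may be only a bound. Hoxc5, by its first probe set, had a larger fall than Hoxa5 and Hoxb5 (-1.45 and -1.46). Its other sets gave -6.24 and -6.40 against -4.96 for the first, so sets of a single gene differed by about as much. Differences between paralogs and between probe sets cannot be told apart in these pairs. The groups did not overlap in any of the 4 pairs, and the exact two-sided permutation p was 0.1 in each, also adjusted over the 4, which is the smallest that 3 arrays against 3 allow, so none could reach 0.05. Another 4 pairs, of Hoxc8 with Hoxd8 and of Hoxc9 with Hoxa9, Hoxb9 and Hoxd9, were not compared, because a gene of each pair lay under 4 on motor neuron arrays and its rise is only a bound.

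**Figure D4:**
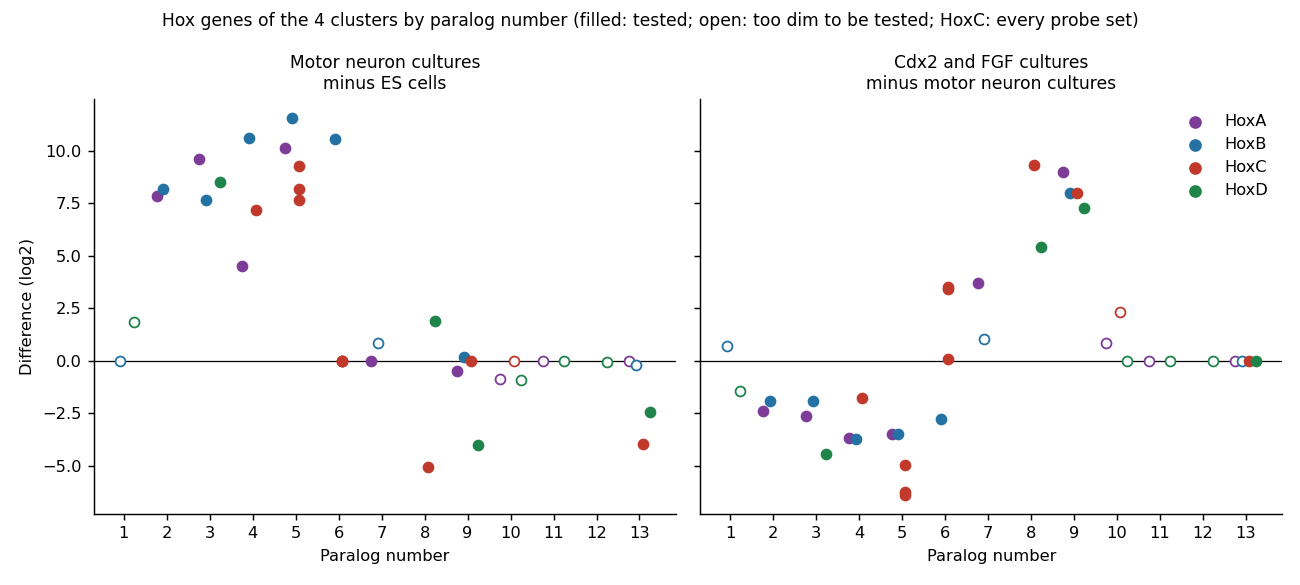
Differences (log2) of the Hox genes of the 4 clusters by paralog number for motor neuron cultures minus ES cells (left) and Cdx2 and FGF cultures minus motor neuron cultures (right); filled points were tested, open points were too dim, and HoxC is drawn with every probe set. On the right, Hoxc5 lies between -6.40 and -4.96 beside Hoxa5 and Hoxb5 at -3.51 and -3.50. Hoxc8 and the genes of paralog number 9 lie above 0, but they were under 4 on the motor neuron arrays, so their heights have no order.

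Factors that act upstream of Hox clusters were taken from a list of caudal and trunk axis genes. Of 10 tested genes, out of 20 listed, 5 rose and 1 fell in Cdx2 and FGF cultures relative to motor neuron cultures. Of all tested genes, 11.1% were called higher and 8.55% lower. The median difference was 1.68, against 0.04 for all tested genes. Cdx2 and Cdx4 exceeded 4 in Cdx2 and FGF cultures alone, so they had to differ. Cdx2, whose share from the construct was not tested, read 8.27, 8.99 and 8.59 in Cdx2 and FGF cultures, against 2.17, 2.17 and 2.24 in motor neuron cultures (difference 6.42, SE 0.22, adjusted p = 1.56e-07). Cdx4, a related caudal factor gene, stood at 5.61 ± 0.39 in Cdx2 and FGF cultures against 2.17 in motor neuron cultures (SD, n = 3; difference 3.44, SE 0.22, adjusted p = 4.73e-06). Nkx1-2, a gene of caudal progenitors, stood at 6.98 ± 0.65 in Cdx2 and FGF cultures against 4.16 ± 1.52 in motor neuron cultures (2.83, SE 0.67, adjusted p = 0.0118).

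Cofactors and chromatin regulators of Hox genes followed. Of 8 tested TALE homeobox genes, whose products bind DNA together with Hox proteins, 1 fell in Cdx2 and FGF cultures relative to motor neuron cultures. The others were not called (median -0.37), and 8.55% of all tested genes were called lower. The TALE gene that fell was Pbx3, at 8.01 ± 0.24 in Cdx2 and FGF cultures against 11.73 ± 0.16 in motor neuron cultures (difference -3.72, SE 0.17, adjusted p = 7.22e-07). Polycomb complexes and H3K27 demethylases write, read and remove H3K27me3, a mark that covers silent Hox clusters. Of 26 tested genes of this list 1 fell, again beside 8.55% of all tested genes, and the others were not called (median -0.04). The gene that fell was Jarid2, which encodes an accessory subunit of the methylating complex. Jarid2 stood at 10.06 ± 0.21 in Cdx2 and FGF cultures against 11.14 ± 0.13 in motor neuron cultures (-1.08, SE 0.16, adjusted p = 9.84e-04). The arrays measure RNA and give no value for H3K27me3 at HoxC.

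Genes of motor columns and pools, some of which HoxC proteins regulate, moved both ways. Of 19 tested genes 6 rose and 8 fell in Cdx2 and FGF cultures relative to motor neuron cultures (median -0.38). Of all tested genes, 11.1% were called higher and 8.55% lower. Lhx1, Lhx4 and Lhx3 fell most, with differences of -3.91, -3.83 and -3.59. Lhx1 exceeded 4 in motor neuron cultures alone, so it had to differ. The 3 genes with the largest absolute differences all rose. Sema3e, a semaphorin gene of certain motor pools, stood at 10.17 ± 0.20 in Cdx2 and FGF cultures against 3.90 ± 1.45 in motor neuron cultures (difference 6.27, SE 0.63, adjusted p = 9.03e-05). Etv4, an FGF-responsive gene used by a brachial pool, stood at 7.35 ± 0.11 in Cdx2 and FGF cultures against 2.17 in motor neuron cultures (5.18, SE 0.40, adjusted p = 1.59e-05). Both were also bright in ES cells, at 10.41 ± 0.59 and 7.32 ± 0.91. Aldh1a2, which makes retinoic acid and marks limb-level motor neurons as well as mesoderm, stood at 6.85 ± 0.98 in Cdx2 and FGF cultures against 2.45 ± 0.49 in motor neuron cultures (4.40, SE 0.53, adjusted p = 2.89e-04).

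The genes whose profile was most like that of a HoxC gene were ranked by Pearson correlation over the 9 arrays, among 10911 genes. The points fall into 3 groups, so r describes the group means more than single arrays. For Hoxc4 they were Ap3s2, Atxn7l3b and Add1, with r = 0.999, 0.999 and 0.998. For Hoxc5 they were Arf2, Lhx3 and Onecut2 (r = 0.996, 0.995 and 0.995), of which Lhx3 is a motor neuron factor gene and averaged 5.34 in Cdx2 and FGF cultures, 8.92 in motor neuron cultures and 2.17 in ES cells. For Hoxc8 they were Mmp2, Mphosph8 and Tgfbi (r = 0.988, 0.988 and 0.987), and this probe set of Mmp2, a matrix protease gene, averaged 9.61 in Cdx2 and FGF cultures, 2.26 in motor neuron cultures and 6.90 in ES cells. Mmp2 stands on the fibroblast list by a brighter probe set, which averaged 9.95 in Cdx2 and FGF cultures, 2.17 in motor neuron cultures and 8.61 in ES cells. For Hoxc9 they were Gprc5c, Npr3 and Meox1 (r = 0.9999, 0.9998 and 0.9998); Meox1, a somite gene on the mesoderm list, averaged 10.95 in Cdx2 and FGF cultures and 2.17 in the other groups.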

How the data were processed

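RNA was amplified with a NuGEN Ovation kit and hybridised to 9 Affymetrix mouse expression arrays, per the labels' protocols. The authors deposited 1 normalized value per probe set; the submitters' processing notes name GCRMA and limma, without versions. The deposited values were read as log2 from their range, 2.17 to 16.12; their lowest value is a floor. Of 45101 probe sets, 34958 had 1 gene symbol in the platform annotation, 932 several and 9211 none; genes were named from the first kind only, and 64 Affymetrix controls were left out.

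Differences were tested with limma 3.58.1 in R 4.3.3, over all 9 arrays with 3 group means and 6 residual degrees of freedom, using eBayes with an intensity trend. This was tested on simulated data. Array number limits the precision. Same-numbered arrays of different groups deviated together weakly at most, with correlations from -0.0281 to 0.106, beside -0.14 to 0.0647 for other pairs. Between Cdx2 and FGF cultures and motor neuron cultures the same-numbered values were 0.0348, 0.106 and 0.0698, all positive. Replicate numbers were not used to pair arrays in the main fit, and a replicate block was among the alternatives. Exact permutation tests used scipy 1.17.1; those between paralogs, and that of Hoxc10, were not in the original plan, and pairs with a gene under 4 were left out after the values were seen.

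All members, and from each gene list at most 3 called genes with the largest difference between the day 5 cultures, are named, with 5 neighbours on each side and the 3 named genes most like Hoxc4, Hoxc5, Hoxc8 and Hoxc9. From the motor column and pool list, the 3 genes that fell most are named as well. In lists and neighbours a gene stands by its brightest probe set; likeness was ranked over all tested probe sets with 1 symbol, the best one for each gene. Neighbour order and the promoter are from RefSeq. Members and lists were chosen with earlier results of these data known.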

Additional observations from a re-analysis of the deposited data

How the results depend on the processing

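Alternatives covered the filter, raising of low values, normalization, array weights, the variance prior, the arrays fitted, the replicate block and omission of each array; median centring on the tested probe sets alone was added after the data were seen. Of 486 alternative values for single HoxC probe sets, 484 kept their call or lack of one; among these, 8 uncalled values of 2 Hoxc6 sets changed sign, lying between -0.18 and 0.39. The other 2 are Hoxc5 sets 1450832_at and 1456301_at in Cdx2 and FGF cultures against ES cells, 0.23 (adjusted p = 0.256) and 0 (adjusted p = 1) with values under 4 raised to 4. With 1 probe set a gene, HoxC calls numbered 2 up and 2 down for Cdx2 and FGF against motor neuron cultures, 4 up for Cdx2 and FGF cultures against ES cells and 2 up for motor neuron cultures against ES cells. All tested genes then gave 1221 higher and 939 lower in the first comparison, against 2343 and 1845 probe sets; 2775 and 2971 against 6758 and 5312 in the second; and 2826 and 3346 against 6873 and 6015 in the last. A filter at 6 left 6 HoxC probe sets, with none of Hoxc6 or Hoxc13. It gave 2 higher, 0 lower and 1 lower in the comparisons in the same order, beside 2120, 4604 and 5263 of all 19123 probe sets then tested. These HoxC counts fell because sets of Hoxc6 and Hoxc13 called in the main fit were not tested. For the same reason at most 6 could be called higher in Cdx2 and FGF cultures against ES cells, in place of 8. Leaving out any array kept the HoxC counts at 4 and 4, 8 and 1, and 4 and 2. The replicate block also gave 4 and 4, 8 and 1, and 4 and 2, and changed no HoxC call. Median centring of each array moved the median of all tested probe sets to 0.57 for Cdx2 and FGF cultures against ES cells, in place of 0.14, and to 0.52 for motor neuron cultures against ES cells, in place of 0.10. The share of calls that were higher was then 67.8% in place of 56%, and 63.8% in place of 53.3%, with HoxC counts as before. Values under 4 limit folds to bounds for Hoxc6, Hoxc8, Hoxc9, Hoxc13 and, against ES cells or by its dimmest set, Hoxc5. For Hoxc10 the raising also lifted a Cdx2 and FGF array, so its fold is not a bound.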
